A study of Rattus norvegicus with 13 samples.

Results

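The measure described here is the difference between 2 effects in rat heart: the effect of a cardiac sonogenetic gene transfer at 6 months minus the same effect at 2 months. WT hearts were untreated. ST hearts were labelled as transduced with AAV2/9-cTnT-MscL-G22S-mCherry, an adeno-associated virus in which the cardiac troponin T promoter, active in heart muscle cells, drives the bacterial mechanosensitive channel MscL with the G22S change together with the red fluorescent protein mCherry. There were 2 WT and 2 ST libraries at 2 months, and 3 WT and 3 ST libraries at 6 months, each titled as a biological replicate of heart tissue. The labels used here do not give strain, sex or ultrasound exposure, nor whether the months count age or time since transduction. None of these groups had a virus without the channel, so virus, mCherry and channel cannot be told apart. The members are the 23018 gene names found in both the 2-month and the 6-month table, of 41182 names in either, and 12658 of them had enough counts to be tested. Per gene, the contrast was (ST minus WT at 6 months) minus (ST minus WT at 2 months), fitted in 1 model of 4 group means over 10 libraries. A positive difference means that the ST level, relative to WT of the same month, stood higher at 6 than at 2 months. Effects and differences are log2 fold changes, given with their standard error (SE), and a call is a Benjamini-Hochberg adjusted p under 0.05 in edgeR's quasi-likelihood test over all genes tested.

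MscL is a bacterial channel that opens when its membrane is stretched, and sonogenetics uses such channels to make cells respond to ultrasound. The adult heart answers load, injury and altered calcium entry with a stereotyped set of genes. Immediate early transcription factors respond within minutes to hours, chaperones follow unfolded protein, and fetal genes such as natriuretic peptides and beta myosin return when ventricular muscle is under lasting stress. Viral vectors can also engage interferon signalling and antigen presentation.

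Library totals ran from 6539312 to 11296869 counts at 2 months and from 6715215 to 8485537 counts at 6 months. The names in both tables held 80.7 to 84.1% of the counts at 2 months and 95.1 to 95.4% at 6 months. Levels below are in CPM, the usual unit of counts relative to library size, computed over those names and scaled between libraries. The tables differed in kind: among 53 very long messenger RNAs, the median WT level at 6 months relative to 2 months was -1.77 on the log2 scale, against 0.01 over all genes tested. Levels are therefore not compared between the months, and time and table cannot be told apart. Heart muscle markers summed to 215500 to 227800 CPM in WT and 231800 to 242100 CPM in ST at 2 months, with ST above WT. At 6 months the sums overlapped, at 135400 to 145800 CPM in WT and 130200 to 137600 CPM in ST. The median effect of the 15 muscle markers was -0.16 at 2 months and 0.08 at 6 months, so the sum at 2 months does not stand for the typical marker. A sum without the most abundant markers was not taken. The transgene was counted under different spellings in the tables and was therefore not tested. All WT libraries had 0 counts of it, a value compatible with at most 3 counts per library. In ST hearts it had 127 and 94 counts (11.2 and 11 CPM of the library total) at 2 months, and 1321, 767 and 1667 counts (197, 90.4 and 209 CPM of the library total) at 6 months.

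The effects at 2 and 6 months differed by a called amount in 22.2% of the genes tested. At 2 months 526 genes (4.16% of those tested) were higher in ST and 392 (3.1%) were lower. At 6 months 2192 (17.3%) were higher and 2292 (18.1%) lower. The difference itself was called for 2811 genes, of which 1294 (10.2%) were positive and 1517 (12%) negative. Leaving out replicate 1 of WT at 2 months lowered these to 705 and 853. With library totals alone in place of scaling factors the split became 1005 positive to 1893 negative, and the median difference of all genes shifted by -0.08. Across the 12658 genes, the effects at the 2 times, which share no library, had a Pearson correlation of 0.08 and a Spearman correlation of 0.04. The median size of the effect was 0.20 at 2 months, against a median SE of 0.16. Among the 509 genes called at both times, 344 had effects of the same sign and 165 of opposite signs, and the Pearson correlation was 0.24. These correlations describe genes, which are not independent replicates. For 7434 genes (58.7%) the 95% interval of the difference lay within 2-fold in either direction.

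The called differences divide by the sign and size of the effects. In 541 genes the estimates had the same sign and the effect was larger at 6 months. In 73 genes they had the same sign and the effect was smaller at 6 months. In 2197 genes the estimates had opposite signs, and in 1482 of these the effect at 6 months alone was called. Both effects were called with opposite signs in 165 genes (1.3% of those tested), 73 lower at 2 and higher at 6 months and 92 the reverse. This last count rests on the 2-month libraries. It was 43 or 99 without replicate 1 or 2 of WT at 2 months, and 66 or 373 without replicate 1 or 2 of ST at 2 months. A further 249 genes (1.97%) were called at both times with the same sign and no called difference, 148 higher and 101 lower in ST. Without the same 4 libraries in that order this count was 99, 133, 122 and 395. For 212 of the 249 the 95% interval of the difference lay within 2-fold in either direction.

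**Figure D1:**
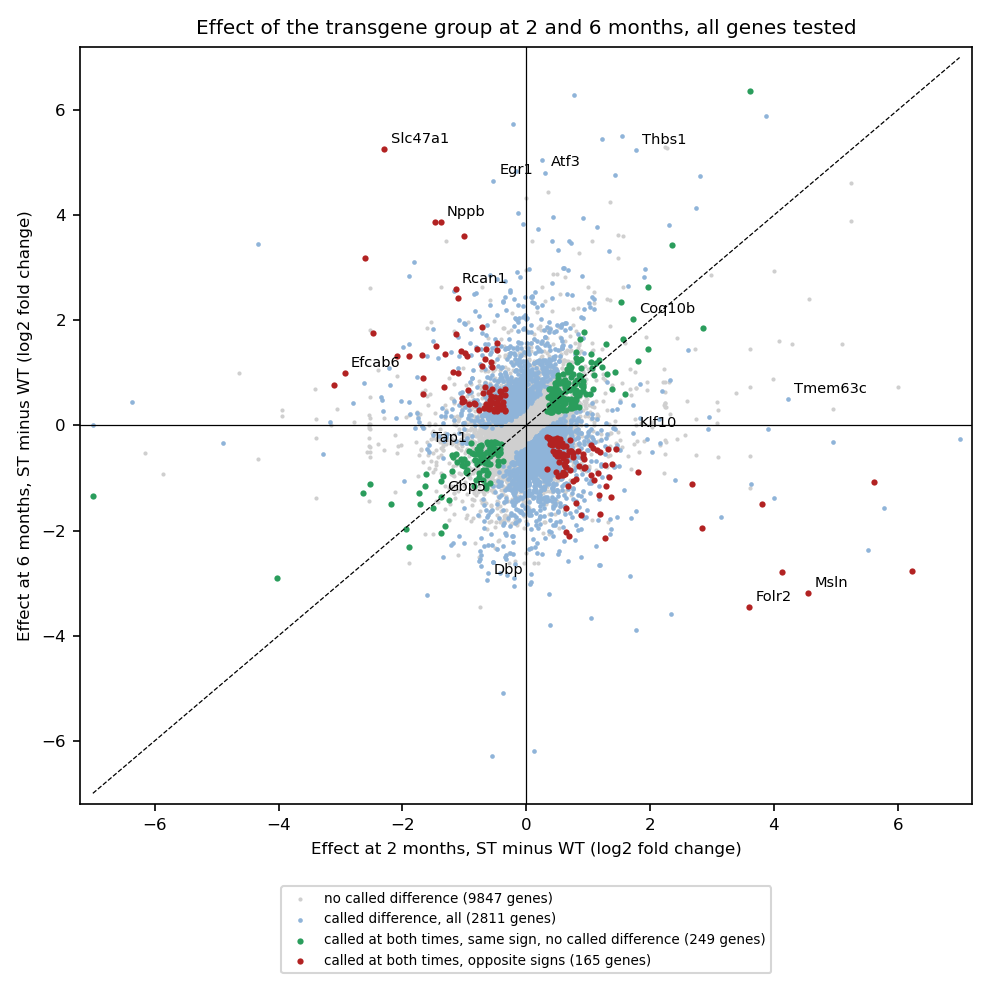
Each point is 1 of 12658 genes, with the log2 fold change of ST over WT at 2 months on the horizontal axis and at 6 months on the vertical axis; values beyond 7 in size are drawn at the edge and the dashed line marks equal effects. The 165 genes called at both times with opposite signs (red) lie in the upper left and lower right, the 249 with the same sign and no called difference (green) lie in the lower left and upper right, and the other called differences are light blue.

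Immediate early transcription factors rose at 6 months in 24 members and at 2 months in 7, against 17.3% and 4.16% of all genes. Of 26 tested, 23 had a positive difference and 1 a negative one, against 10.2% and 12% of all genes. The median effect was 0.24 at 2 months and 2.03 at 6 months, against 0.00 and -0.01 over all genes. Egr1, a zinc finger factor induced by growth factors and stretch, stood at 19.6 and 14.6 CPM in WT and 13.4 and 10.4 CPM in ST at 2 months. At 6 months it stood at 6.2, 7.18 and 8.5 CPM in WT and 167, 212 and 176 CPM in ST. ST was the lower group at 2 months and the higher one at 6 months, without overlap. Its effect was -0.53 ± 0.2 (SE, adjusted p = 0.121) at 2 months and 4.66 ± 0.146 at 6 months, a difference of 5.19 ± 0.254 with an adjusted p of 2.17e-09. Atf3, a stress-induced factor of the ATF family, overlapped between the groups at 2 months (7.74 and 5.2 CPM in WT, 9.06 and 7.08 CPM in ST). At 6 months Atf3 rose from 2.48, 3.65 and 2.83 CPM in WT to 73.5, 100 and 79.7 CPM in ST, and its difference was 4.51 ± 0.349 (adjusted p = 2.8e-07). Klf4, a Krüppel-like factor, had effects of 0.29 ± 0.11 and 1.81 ± 0.0869 and a difference of 1.53 ± 0.14.

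Klf10, a factor induced by TGF-beta, was the member with a negative difference. It stood at 12.8 and 12.2 CPM in WT and 43.4 and 39.5 CPM in ST at 2 months, a rise of 1.73 ± 0.136 (adjusted p = 7.99e-07). At 6 months the values were 25.9, 24.5 and 24.8 CPM in WT and 22.1, 24.5 and 21.1 CPM in ST, an effect of -0.15 ± 0.104 that did not pass the test. Its difference was -1.88 ± 0.172.

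Among genes of the matrix, growth arrest and inflammation, single members had large positive differences, and most members of their lists had no called difference. Thbs1, the matricellular protein thrombospondin 1, rose at both times and by more at 6 months. Its levels were 39.3 and 25.8 CPM in WT and 136 and 88.7 CPM in ST at 2 months, then 12.7, 13.3 and 11.3 CPM in WT and 471, 386 and 552 CPM in ST at 6 months. Its effects were 1.77 ± 0.211 and 5.24 ± 0.194, and the difference 3.47 ± 0.286 (adjusted p = 6.02e-07). Cdkn1a, the cell cycle inhibitor p21, overlapped between the groups at 2 months and rose from 21.2 to 22.2 CPM in WT to 121 to 142 CPM in ST at 6 months (difference 2.83 ± 0.241). Of 31 fibroblast matrix and activation genes, which include Thbs1, 6 had a positive and 6 a negative difference, with 3 negative without replicate 1 of ST at 2 months. Of 19 p53 and growth arrest genes, which include Cdkn1a, 5 were positive and 3 negative (26.3% and 15.8%). The fibroblast list had 19.4% positive and 19.4% negative with all 10 libraries. Over all genes tested the shares were 10.2% positive and 12% negative. Of 27 NF-kappaB feedback and early inflammation genes, 9 (33.3%) had a positive and 1 (3.7%) a negative difference. Without replicate 1 of WT at 2 months 5 were positive and 0 negative, and without replicate 1 of ST at 2 months 6 and 0. Nfkbiz, an atypical inhibitor of NF-kappaB, and Icam1, an adhesion molecule, had uncalled effects of 0.09 ± 0.23 and -0.08 ± 0.189 at 2 months and rose by 2.46 ± 0.179 and 1.47 ± 0.135 at 6 months.

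The promoters of Btg2, an antiproliferative early response gene with a difference of 1.89 ± 0.187, and of Rcan1, described further on, are printed because both hold the cyclic AMP response element. The windows are RefSeq promoters of the rat assembly GRCr8, from 250 bases before to 50 bases after each gene's start. Stretches before the start are shown 5′ to 3′ on the gene's strand, with TGACGTCA in capitals. That of Btg2 is chr13:48087854-48087921 and that of Rcan1 chr11:45118406-45118473, both on the minus strand.
Btg2: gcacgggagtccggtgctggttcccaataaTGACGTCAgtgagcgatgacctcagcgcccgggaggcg
Rcan1: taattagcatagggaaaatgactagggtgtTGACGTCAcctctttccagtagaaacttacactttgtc
The element starts 201 bases before the start of Btg2 and 207 bases before that of Rcan1. It was found on either strand in 1.91% of 27457 windows and in 3.11% of the 10397 windows of genes tested. It was in 4.05% of 1062 windows of genes with a positive difference and in 1.84% of 1253 windows of genes with a negative one. Among immediate early genes, 4 of the 16 with a window held it. The CArG box of the serum response element was also in 4 of these 16 windows, against 1.27% of windows of genes tested. It was in 2.17% of windows of genes with a positive difference and in 0.878% of those with a negative one.

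Heat shock proteins and cytosolic chaperones, which hold and refold unfolded proteins, also rose chiefly at 6 months. Of 30 tested, 20 (66.7%) had a positive difference and 0 a negative one, against 10.2% and 12% of all genes. At 6 months 25 were higher and 0 lower in ST, against 17.3% and 18.1% of all genes. At 2 months 2 were higher and 3 lower, against 4.16% and 3.1% of all genes. Hspa1a, the inducible HSP70, stood at 40.4 and 44 CPM in WT and 58.1 and 68.8 CPM in ST at 2 months, and at 16.1, 19.3 and 22 CPM in WT and 145, 174 and 137 CPM in ST at 6 months. ST lay above WT at both times. Its effects were 0.59 ± 0.145 (adjusted p = 0.0218) and 2.99 ± 0.124, and their difference 2.40 ± 0.192 (adjusted p = 4.32e-07). Hspb1, the small heat shock protein HSP27, turned sign. It was 270 and 242 CPM in WT and 175 and 194 CPM in ST at 2 months, and 137, 157 and 178 CPM in WT and 482, 432 and 491 CPM in ST at 6 months. It fell by 0.47 on the log2 scale at 2 months (adjusted p = 0.0244) and rose by 1.57 ± 0.0991 at 6 months. Hspa8, the constitutive HSC70, and Hspb7, a small heat shock protein of heart muscle, did not pass the test at 2 months (-0.08 ± 0.09 and -0.26 ± 0.102) and rose by 0.90 ± 0.074 and 0.87 ± 0.0834 at 6 months. Of 22 folding genes of the endoplasmic reticulum, 10 (45.5%) had a positive and 2 (9.09%) a negative difference. The chaperone Hspa5 had effects of -0.26 ± 0.103 and 0.63 ± 0.0842. Edem1, which marks misfolded glycoproteins for disposal, rose by 0.54 ± 0.107 and then fell by 0.32 on the log2 scale.

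The promoters of Hspb1 and Hspa8 are printed because both hold the core of the heat shock element, GAANNTTC, shown in capitals. They lie at chr12:26432373-26432460 on the minus strand and chr8:50080271-50080501 on the plus strand.
Hspb1: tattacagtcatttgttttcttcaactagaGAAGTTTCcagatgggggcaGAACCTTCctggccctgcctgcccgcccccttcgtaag
Hspa8: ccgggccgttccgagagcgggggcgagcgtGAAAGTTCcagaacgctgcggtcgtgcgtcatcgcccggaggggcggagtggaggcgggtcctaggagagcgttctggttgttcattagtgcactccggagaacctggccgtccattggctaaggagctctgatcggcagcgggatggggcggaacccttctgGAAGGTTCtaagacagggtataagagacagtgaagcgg
Each stretch holds 2 matches. Hspb1 turned sign and Hspa8 was called at 6 months alone, and any relation of matches to effects was not tested. Of 25 chaperone windows 14 held the core (56%), against 5.67% of windows of genes tested and 8.34% of all windows. The core was in 5.65% of windows of genes with a positive difference and 5.03% of those with a negative one.

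Fetal and stress genes of the ventricle had mostly positive differences, several of them from below WT to above it. Of 20 tested, 12 (60%) had a positive difference and 0 a negative one, against 10.2% and 12% of all genes. At 2 months 5 were lower and 2 higher in ST, against 3.1% and 4.16% of all genes. At 6 months 17 were higher and 0 lower, against 17.3% and 18.1% of all genes. The median effect went from -0.34 to 1.34. The median WT level of the list was -1.0 on the log2 scale at 6 relative to 2 months, against 0.01 over all genes tested, and the part of the table in these differences was not tested. In 5 genes both effects were called with opposite signs: Rcan1, Ankrd1, Nppb, Tnfrsf12a and Acta1. Rcan1, a calcineurin inhibitor whose transcription calcineurin induces, stood at 462 and 400 CPM in WT and 207 and 183 CPM in ST at 2 months. At 6 months it stood at 144, 163 and 168 CPM in WT and 895, 982 and 969 CPM in ST. The groups did not overlap at either time. Its effects were -1.14 ± 0.11 (adjusted p = 7.7e-06) and 2.59 ± 0.0932 (adjusted p = 5.11e-12), and their difference was 3.73 ± 0.145 (adjusted p = 1.67e-10). Ankrd1, a stretch-responsive ankyrin repeat protein of the sarcomere, was 3046 and 2628 CPM in WT and 1656 and 1285 CPM in ST at 2 months, and 2701, 2608 and 2742 CPM in WT and 7421, 5669 and 7183 CPM in ST at 6 months. It fell by 0.95 and then rose by 1.33 ± 0.106 on the log2 scale.

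Natriuretic peptides differed in how firmly they moved. Nppb, brain natriuretic peptide, was 163 and 127 CPM in WT and 61.4 and 50.3 CPM in ST at 2 months, and 18.6, 27.4 and 32.6 CPM in WT and 402, 190 and 558 CPM in ST at 6 months. Its difference was 5.24 ± 0.458 (adjusted p = 1.02e-06), with every ST library below WT at 2 months and above it at 6 months. Nppa, atrial natriuretic peptide, overlapped between the groups at both times. It was 214 and 56.8 CPM in WT and 136 and 59.4 CPM in ST at 2 months, and 13.6, 41 and 83.5 CPM in WT and 362, 34.8 and 561 CPM in ST at 6 months. Its difference of 3.27 ± 1.11 (adjusted p = 0.0435) was called in edgeR and lost with DESeq2 (adjusted p = 0.168), in limma-voom (2.71, adjusted p = 0.158) and in limma-voom with a variance weight per time point (2.71, adjusted p = 0.216). It was also lost without any single library other than replicate 2 of WT at 2 months, replicate 3 of WT at 6 months or replicate 2 of ST at 6 months, with differences between 2.00 (without replicate 1 of WT at 2 months) and 4 (without replicate 1 of ST at 2 months) and adjusted p from 0.0713 to 0.331. Myh7, the beta myosin heavy chain, had groups that overlapped at 2 months (8508 and 2984 CPM in WT, 4192 and 2249 CPM in ST) and did not at 6 months (2713, 2562 and 2472 CPM in WT, 15190, 11650 and 17170 CPM in ST). Its difference was 3.34 ± 0.434. Xirp1, an actin-binding protein of the intercalated disc, had effects of -0.05 ± 0.111 and 2.07 ± 0.0936. Tnfrsf12a, the receptor of the cytokine TWEAK, had effects of -1.01 ± 0.241 and 3.61 ± 0.176.

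**Figure D2:**
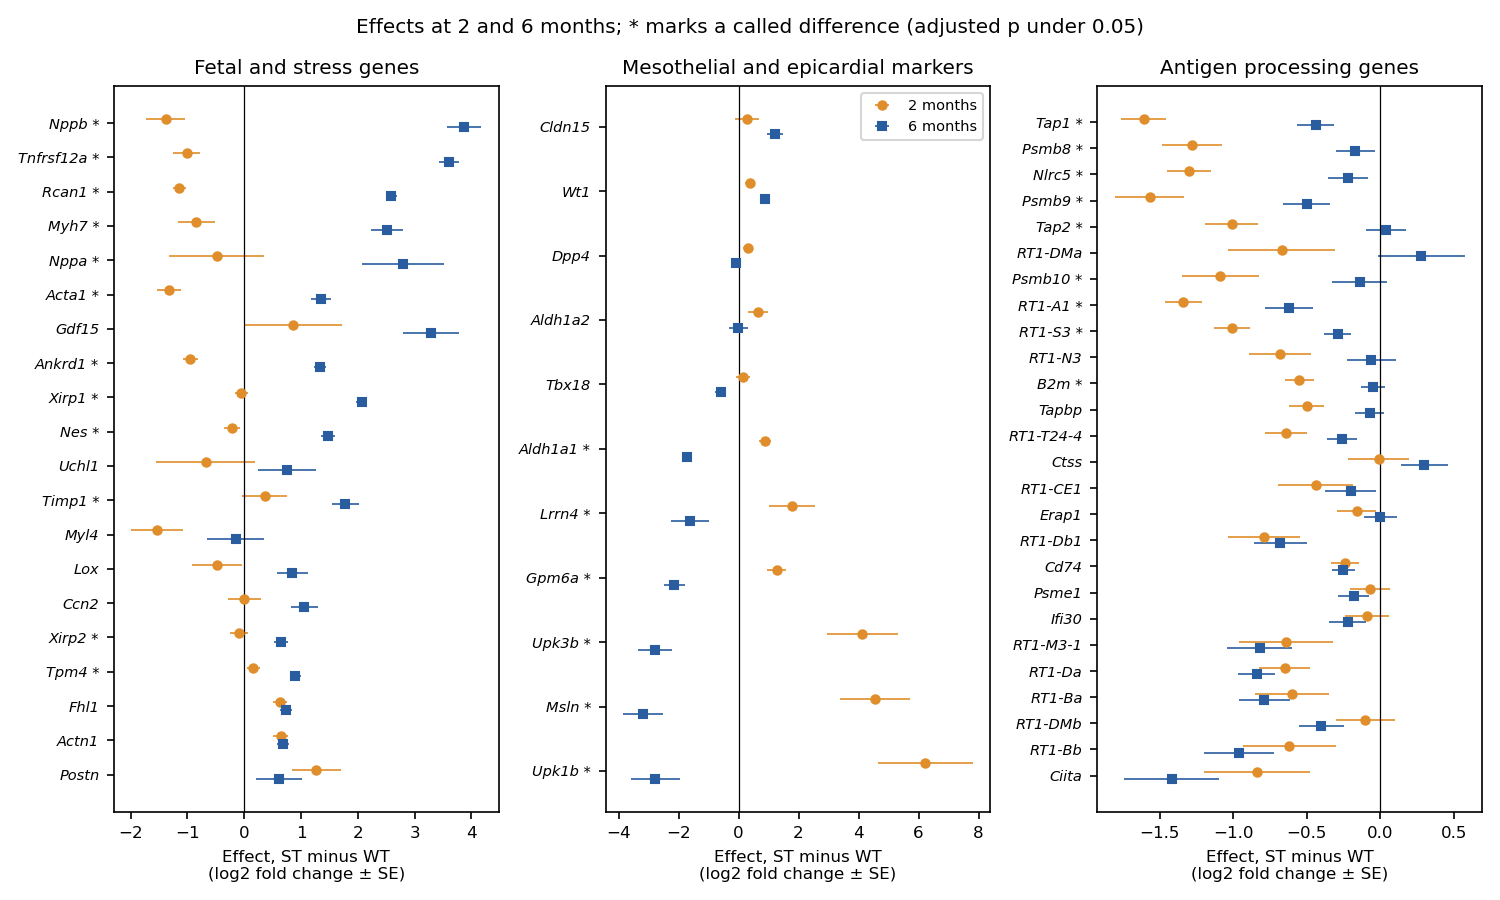
Effects (log2 fold change of ST over WT, with SE) at 2 and 6 months for every tested member of 3 lists, ordered by their difference. Most fetal and stress genes lie higher at 6 than at 2 months, several mesothelial markers lie lower, and the antigen processing genes with a called difference (marked with a star) all lie below 0 at 2 months.

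Sarcomere genes, the contractile apparatus, showed mixed and smaller differences. Of 37 tested, 13 (35.1%) had a positive and 6 (16.2%) a negative difference, against 10.2% and 12% of all genes. The median effect went from -0.16 to 0.12. Flnc, the Z-disc crosslinker filamin C, had effects of -0.29 ± 0.103 (adjusted p = 0.101) and 1.47 ± 0.0861. Lmod2, a leiomodin that lengthens thin filaments, fell by 0.35 on the log2 scale at 2 months (adjusted p = 0.034) and rose by 0.58 ± 0.0766 at 6 months. Myot, the Z-disc protein myotilin, had effects of 0.61 ± 0.243 and 3.00 ± 0.173. Myh6, the alpha myosin heavy chain, was 44550 and 46480 CPM in WT and 40050 and 49320 CPM in ST at 2 months, and 52540, 53790 and 56970 CPM in WT and 37740, 43310 and 36920 CPM in ST at 6 months. The groups overlapped at 2 months, and ST was the lower group at 6 months. Its difference of -0.44 ± 0.119 (adjusted p = 0.014) was no longer called without replicate 1 of WT at 2 months (-0.41, adjusted p = 0.0655) or replicate 2 of ST at 2 months (-0.28, adjusted p = 0.05). The calcium cycling genes Atp2a2, the sarcoplasmic reticulum pump, and Ryr2, its release channel, had uncalled differences of -0.13 ± 0.112 and 0.06 ± 0.112, with 95% intervals of -0.37 to 0.10 and -0.18 to 0.30.

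Ventricular and atrial patterning genes did not move as a block. Of 21 tested, 5 had a positive and 6 a negative difference, against 3 positive without replicate 1 of ST at 2 months and 3 negative without replicate 1 of WT at 2 months. With all 10 libraries 23.8% were positive and 28.6% negative, both above the 10.2% and 12% of all genes. At 6 months 10 were lower and 4 higher in ST, where 18.1% of all genes were lower and 17.3% higher. Lrrc10, a leucine-rich repeat protein restricted to heart muscle, was lower at both times and by more at 6 months. It was 561 and 521 CPM in WT and 338 and 409 CPM in ST at 2 months, and 478, 529 and 574 CPM in WT and 89.7, 84.7 and 89.1 CPM in ST at 6 months. It fell by 0.53 and by 2.59 on the log2 scale, and the difference was -2.05 ± 0.145 (adjusted p = 1.07e-07). Irx4, the homeobox factor of ventricular identity, was not called at 2 months (-0.16 ± 0.194) and fell by 1.83 at 6 months. Myocd, the muscle coactivator myocardin, did the reverse: it fell by 0.94 at 2 months (adjusted p = 0.00051) and had an uncalled effect of 0.14 ± 0.114 at 6 months. Gata4, a cardiac zinc finger factor, had effects of -0.23 ± 0.0993, not called, and 0.59 ± 0.0817.

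Potassium channels, which repolarise the heart muscle cell, had mostly negative differences. Of 19 tested, 10 (52.6%) were negative and 2 (10.5%) positive, against 12% and 10.2% of all genes. In ST 3 were higher and 3 lower at 2 months, against 4.16% and 3.1% of all genes. At 6 months 3 were higher and 11 lower, against 17.3% and 18.1% of all genes. Kcnh2, the rapid delayed rectifier, overlapped at 2 months (76.7 and 90.8 CPM in WT, 73 and 103 CPM in ST). At 6 months it was 105, 93 and 94.7 CPM in WT and 31.7, 28.2 and 30.5 CPM in ST, and its difference was -1.77 ± 0.186 (adjusted p = 7.2e-06). Kcnj3, a subunit of the acetylcholine-activated channel, turned sign with both effects called. It was 51 and 61 CPM in WT and 87.8 and 88.4 CPM in ST at 2 months, then 90.6, 107 and 111 CPM in WT and 72.9, 63.9 and 71.7 CPM in ST at 6 months. Its effects were 0.66 ± 0.122 and -0.57 ± 0.0961. Kcna5, the ultrarapid delayed rectifier, also turned, from 1.38 ± 0.247 to -0.74 ± 0.18. Kcnk3, the acid-sensitive leak channel TASK-1, had a positive difference, with effects of -0.06 ± 0.122, not called, and 1.04 ± 0.0979. Cacna1h, a T-type calcium channel, fell by 2.11 at 6 months (difference -1.88 ± 0.185).

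Clock genes, whose proteins drive or repress daily rhythms, had 9 negative and 4 positive differences among 22 tested. These shares of 40.9% and 18.2% stood against 12% and 10.2% of all genes. Dbp, an activator under direct control of the clock, was 173 and 177 CPM in WT and 98.8 and 128 CPM in ST at 2 months, and 213, 216 and 223 CPM in WT and 28.9, 28.8 and 26.8 CPM in ST at 6 months. ST was the lower group at both times. It fell by 0.63 (adjusted p = 0.00202) and by 2.95 on the log2 scale, a difference of -2.32 ± 0.148. Bhlhe41, a repressor of the clock, fell by 0.73 and by 2.67 and had a difference of -1.94 ± 0.175. Per3 and Nr1d2, a period protein and a nuclear receptor of the repressing arm, had uncalled effects of 0.12 ± 0.103 and 0.16 ± 0.102 at 2 months and fell by 1.37 and 1.03 at 6 months. The promoter of Bhlhe41 (chr4:180569368-180569433, minus strand) is printed because it holds the E-box CACGTG, the element that clock activators bind, in capitals.
Bhlhe41: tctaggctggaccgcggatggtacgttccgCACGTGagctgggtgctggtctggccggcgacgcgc
The E-box was in 4 of 17 clock gene windows (23.5%), in 9.33% of windows of genes tested and in 6.65% of all windows.

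Klf15, a factor that activates amino acid and lipid catabolism, and most genes of branched-chain amino acid breakdown moved in opposite directions. Klf15 was 51.7 and 59.6 CPM in WT and 80.5 and 94.3 CPM in ST at 2 months, and 86.4, 88.2 and 90.2 CPM in WT and 52.7, 50.1 and 50.9 CPM in ST at 6 months. It rose by 0.65 ± 0.108 and then fell by 0.79, a difference of -1.44 ± 0.139 (adjusted p = 2.91e-06). Of the 22 genes of the branched-chain list, which includes Klf15, 13 had a positive and 2 a negative difference, and without replicate 2 of WT at 2 months 8 were positive. With all 10 libraries 59.1% of the list was positive and 9.09% negative, against 10.2% and 12% of all genes. Bckdha, a subunit of the branched-chain ketoacid dehydrogenase, was 202 and 215 CPM in WT and 106 and 141 CPM in ST at 2 months. At 6 months it was 222, 220 and 214 CPM in WT and 267, 266 and 275 CPM in ST. Its effects were -0.76 ± 0.114 and 0.30 ± 0.0906, both called. Acadsb, a branched-chain acyl-CoA dehydrogenase, turned likewise from -0.42 ± 0.115 to 0.54 ± 0.0928.

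Individual fuel and muscle genes moved far in both directions. Ucp3, a mitochondrial carrier of muscle, was 6.16 and 7.8 CPM in WT and 3.33 and 4.97 CPM in ST at 2 months, and 13.9, 10.6 and 14 CPM in WT and 53, 64 and 45.8 CPM in ST at 6 months, and its difference was 2.84 ± 0.337. Cpt1a, which carries fatty acids into mitochondria, rose by 0.52 ± 0.105 and then fell by 0.51. Vegfa, an angiogenic growth factor, had an uncalled effect of 0.00 ± 0.104 at 2 months and rose by 1.05 ± 0.0856 at 6 months. Klhl33 and Klhl34, kelch-repeat proteins, had differences of -3.56 ± 0.182 and 3.54 ± 0.433. Klhl33 was 31.7 and 32.2 CPM in WT and 40.5 and 41.4 CPM in ST at 2 months, then 91.7, 108 and 92.7 CPM in WT and 10.4, 12.4 and 8.71 CPM in ST at 6 months. Klhl34 was 9.17 and 5.6 CPM in WT and 3.79 and 3.16 CPM in ST at 2 months, then 0.965, 2.61 and 1.89 CPM in WT and 9.01, 11.8 and 8.98 CPM in ST at 6 months. Neither gene's groups overlapped at either time, and their orders were opposite.

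**Figure D3:**
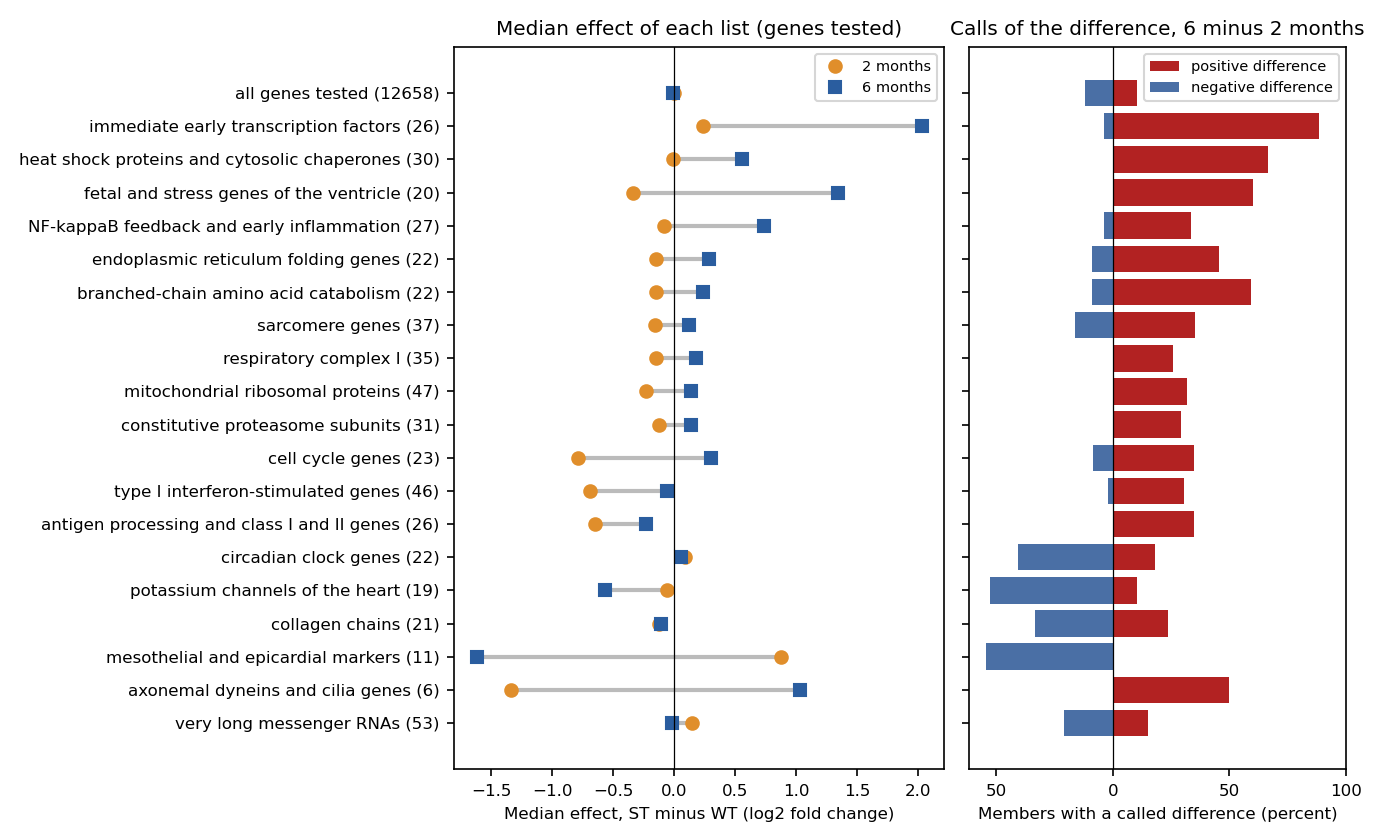
Median log2 fold change of ST over WT at 2 and 6 months for all genes tested and for the lists, beside the percentage of members with a called positive or negative difference. Immediate early and fetal genes lie higher at 6 than at 2 months, mesothelial markers lie lower, and the median of all genes tested stays near 0 (0.00 and -0.01).

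Genes of mitochondria and of the proteasome included a larger share of positive differences than the 10.2% of all genes tested, and 0 negative ones. Of 35 genes of respiratory complex I, 33 had a positive estimate of the difference but 9 were called, and the median effect went from -0.15 to 0.18. Of 47 mitochondrial ribosomal proteins 15 were called and positive, with medians of -0.23 and 0.14. Of 31 constitutive proteasome subunits 9 were called and positive, with medians of -0.12 and 0.14. Mrps2 had the largest difference of the mitochondrial ribosomal proteins, 1.21 ± 0.164. The counts moved with the scaling, the tool and single libraries. The mitochondrial ribosome had 7 calls with library totals alone, 9 with DESeq2 and 8 in limma-voom with a variance weight per time point, and complex I had 14 with no filter on low counts. Complex I had 3 and 4 calls without replicates 1 and 2 of WT at 2 months, 2 and 17 without replicates 1 and 2 of ST at 2 months, and 5 without replicate 3 of ST at 6 months. The proteasome had 4 without replicate 1 of WT and 5 without replicate 1 of ST at 2 months. The mitochondrial ribosome had 6 and 7 without replicates 1 and 2 of WT and 7 without replicate 1 of ST at 2 months, and 8 without replicate 1 of WT and 9 and 6 without replicates 1 and 3 of ST at 6 months. The very long mRNAs, whose WT levels differed between the tables, had medians of the other order, 0.15 and -0.02. Of them 8 (15.1%) had positive and 11 (20.8%) negative differences, the latter against 12% of all genes. Without replicate 1 of WT at 2 months 1 was positive and 7 were negative, and without replicate 3 of WT, 1 of ST or 3 of ST at 6 months 5, 4 and 5 were positive. The negative ones were 7 without replicate 2 of WT at 2 months or replicate 2 of WT at 6 months, and 6 without replicate 1 of ST at 2 months or replicate 1 or 3 of ST at 6 months. The part of transcript length in these shifts was not tested.

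Collagen chains had 7 negative and 5 positive differences among 21 tested, and the positive ones were 2 without replicate 1 of WT at 2 months or 3 without replicate 2 of WT at 6 months. With all 10 libraries 33.3% were negative and 23.8% positive, against 12% and 10.2% of all genes. The fibrillar chains Col1a1 and Col3a1 had uncalled effects of -0.15 ± 0.129 and 0.01 ± 0.116 at 2 months and fell by 1.17 and 1.07 at 6 months. Col1a1 was 438 and 351 CPM in WT and 365 and 347 CPM in ST at 2 months, and 111, 123 and 130 CPM in WT and 52.1, 63.1 and 46.6 CPM in ST at 6 months. Col4a1, a basement membrane chain, had effects of -0.29 ± 0.141, not called, and 0.70 ± 0.116. Col4a3, another type IV chain, fell by 1.26 at 6 months (difference -1.24 ± 0.166).

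Mesothelial and epicardial markers, of the cells that cover the heart, included several that turned from higher to lower in ST. Of 11 tested, 6 (54.5%) had a negative difference and 0 a positive one, against 12% and 10.2% of all genes. In 5 of the 6 both effects were called with opposite signs. With a stricter filter on low counts 6 were tested and 3 were negative. Aldh1a1, a retinaldehyde dehydrogenase, was 52.5 and 50.6 CPM in WT and 100 and 89.9 CPM in ST at 2 months, and 196, 209 and 212 CPM in WT and 48.6, 86.5 and 52.1 CPM in ST at 6 months. Its effects were 0.88 ± 0.193 and -1.71 ± 0.151, and the difference was -2.59 ± 0.245 (adjusted p = 2.29e-06). Gpm6a, a membrane glycoprotein, went from 1.27 ± 0.314 to -2.14 ± 0.346. Msln, mesothelin, had 2 counts in WT and 68 in ST at 2 months, a ratio of 26.5 with a counting interval of 7.06 to 223. At 6 months it was 3.03, 5.48 and 9.17 CPM in WT and 0.311, 1.49 and 0 CPM in ST. Wt1, an epicardial factor, had effects of 0.37 ± 0.162 and 0.88 ± 0.117 and no called difference (0.51 ± 0.201), although the difference was called without replicate 2 of ST at 2 months (0.62, adjusted p = 0.0494) or replicate 2 of ST at 6 months (0.59, adjusted p = 0.0442). Summed over the 14 markers in both tables, levels were 100 to 102 CPM in WT and 158 to 185 CPM in ST at 2 months, and 251 to 280 CPM in WT and 108 to 145 CPM in ST at 6 months. Aldh1a1 alone had group means of 51.5 CPM in WT and 95 CPM in ST at 2 months. At 6 months its means were 205 CPM in WT and 62.4 CPM in ST. The sum thus follows mainly Aldh1a1, and a sum without it was not taken. In bulk tissue, fewer cells of a type and less RNA per cell cannot be told apart.

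Of the axonemal dyneins and cilia genes, a few turned the other way. Of the 6 with enough counts, 3 (50%, against 10.2% of all genes) had a positive difference, each with both effects called. Efcab6, a calcium-binding protein, was 72.5 and 62.4 CPM in WT and 8.15 and 9.79 CPM in ST at 2 months, and 24.4, 23 and 18.6 CPM in WT and 40.2, 35.7 and 54.8 CPM in ST at 6 months. It fell by 2.93 and then rose by 0.99 ± 0.15, a difference of 3.91 ± 0.254 (adjusted p = 5.73e-08). The dynein heavy chains Dnah5 and Dnah7 had differences of 4.23 ± 0.324 and 5.79 ± 0.69. Dnah5 was 35.5 and 39.2 CPM in WT and 8.72 and 4.22 CPM in ST at 2 months, then 6.07, 5.74 and 6.47 CPM in WT and 26.4, 16.8 and 19.3 CPM in ST at 6 months. The median WT level of the list was -1.18 on the log2 scale at 6 relative to 2 months, and the part of the table in these differences was not tested.

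Among the genes with the largest opposite effects were several of low level. Folr2, a folate receptor of macrophages, was 0.573 and 0.2 CPM in WT and 5.85 and 4.52 CPM in ST at 2 months, and 4.27, 5.48 and 4.05 CPM in WT and 0.155, 0.372 and 0.66 CPM in ST at 6 months. Its effects were 3.60 ± 0.502 and -3.45 ± 0.397. The 24 macrophage and monocyte markers in both tables, 1 of them at 0 in every library, summed to 204 to 277 CPM in WT and 248 to 312 CPM in ST at 2 months, and to 213 to 264 and 199 to 271 CPM at 6 months, overlapping at both times. Slc47a1, an exporter of organic cations, was 7.31 and 8.2 CPM in WT and 1.38 and 1.81 CPM in ST at 2 months, and 0.138, 0.261 and 0 CPM in WT and 5.75, 6.33 and 5.28 CPM in ST at 6 months. At 6 months this rests on 3 counts in WT against 128 in ST, a ratio of 43.2 with a counting interval of 14.4 to 212. Rnd1 was 13 and 7.2 CPM in WT and 4.02 and 3.46 CPM in ST at 2 months, and 2.62, 3.52 and 3.91 CPM in WT and 44.7, 48.3 and 54.8 CPM in ST at 6 months. Its difference was 5.34 ± 0.339. Adh1c, an alcohol dehydrogenase, overlapped at 2 months (8.03 and 4.6 CPM in WT, 6.77 and 7.38 CPM in ST) and at 6 months had 251 counts in WT and 3 in ST. That ratio of WT to ST was 82.7, with a counting interval of 28 to 404.

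A few of the largest fitted differences rest on groups at 0 and carry no fold here. Zxda was 10.2 and 0 CPM in WT and 0 and 0 CPM in ST at 2 months, and 5.93, 4.96 and 3.78 CPM in WT and 4.04, 5.59 and 5.02 CPM in ST at 6 months. Slc39a7 was 0 and 0 CPM in WT and 0 and 7.53 CPM in ST at 2 months, against 50.2 to 54.4 CPM in WT and 43.4 to 44.2 CPM in ST at 6 months. Il10rb was 0 and 0 CPM in WT and 0.688 and 0.301 CPM in ST at 2 months, against 22.1 to 25.5 CPM in WT and 16.9 to 23 CPM in ST at 6 months. Their calls were lost without single libraries of 2 months: for Zxda without replicate 1 of WT (adjusted p = 1) or of ST (0.0613), for Slc39a7 without replicate 1 or 2 of WT (0.145 and 0.0821) or replicate 2 of ST (1), and for Il10rb without replicate 1 or 2 of WT (0.128 and 0.0686) or replicate 1 of ST (0.148). In limma-voom without and with a variance weight per time point the adjusted p was 0.0975 and 0.114 for Zxda and 0.256 and 0.282 for Slc39a7. For Il10rb it was 0.0506 with that weight and 0.0767 in edgeR within each time point.

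Antigen processing genes included a set whose effect shrank. Of 26 tested, 12 were lower in ST at 2 months, against 3.1% of all genes, and 11 at 6 months, against 18.1% of all genes. At either time 0 were higher, against 4.16% of all genes at 2 months and 17.3% at 6 months. The difference was positive in 9 (34.6%) and negative in 0, against 10.2% and 12% of all genes. In 8 of these 9 the estimates had the same sign and the effect was smaller at 6 months. Tap1, a subunit of the transporter that supplies peptides to class I molecules, was 24.2 and 24.8 CPM in WT and 8.15 and 7.83 CPM in ST at 2 months, and 15.6, 14.1 and 16 CPM in WT and 12, 10.9 and 11 CPM in ST at 6 months. The groups did not overlap at either time. It fell by 1.61 (adjusted p = 6.87e-06) and by 0.44 (adjusted p = 0.0115), a difference of 1.18 ± 0.198. Nlrc5, the activator of class I genes, fell by 1.30 at 2 months and had an uncalled effect of -0.22 ± 0.134 at 6 months. RT1-S3, a class I molecule whose reads may be shared with related class I genes, fell by 1.01 and by 0.29. Tap2, the partner of Tap1, had effects of -1.01 ± 0.18 and, not called, 0.04 ± 0.134. The genes with a called difference (Tap1, Tap2, Nlrc5, Psmb8, Psmb9, Psmb10, B2m, RT1-A1 and RT1-S3) belong to the class I pathway, a division made after their values were seen. Of the class II genes, Cd74, the invariant chain, had effects of -0.24 ± 0.0965 and -0.25 ± 0.0766, and RT1-Da had effects of -0.65 ± 0.172 and -0.84 ± 0.126, with no called difference in either. Without replicate 1 of WT at 2 months 5 genes were called, and the adjusted p was 0.0734 for B2m, 0.092 for Psmb9, 0.166 for Psmb10 and 0.0841 for RT1-A1. The call of RT1-A1 was also lost without replicate 3 of WT (0.0527) or replicate 2 or 3 of ST (0.0629 and 0.0704) at 6 months. That of Psmb10 was lost without replicate 2 of WT (0.068) or replicate 1 of ST (0.202) at 2 months, and replicate 1 of WT (0.0696) or replicate 2 or 3 of ST (0.0533 and 0.0998) at 6 months. It was also lost with library totals alone (0.0595), with DESeq2 (0.0809) and in limma-voom with a variance weight per time point (0.0758).

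Interferon-stimulated genes, many of them antiviral effectors, included a large share that was lower in ST at 2 months. Of 46 tested, 20 were lower and 1 higher at 2 months, and 6 lower and 7 higher at 6 months. Of all genes tested, 3.1% were lower and 4.16% higher at 2 months, and 18.1% lower and 17.3% higher at 6 months, so that the shares at 6 months lay below those of all genes. The difference was positive in 14 and negative in 1, and positive in 7 without replicate 1 of WT at 2 months. With all 10 libraries 30.4% of the differences were positive and 2.17% negative, against 10.2% and 12% of all genes. Mx1, a dynamin-like antiviral GTPase, was 9.32 and 8.2 CPM in WT and 2.41 and 0.904 CPM in ST at 2 months, and 6.07, 5.61 and 7.82 CPM in WT and 8.39, 8.94 and 10 CPM in ST at 6 months. It fell by 2.33 (adjusted p = 0.000308) and was not called at 6 months (0.49 ± 0.204, adjusted p = 0.0724), and its difference was 2.82 ± 0.384. Gbp1, a guanylate-binding protein, fell by 1.31 and then had an uncalled effect of 0.17 ± 0.113. Bst2, tetherin, which holds budding virus at the cell surface, turned sign. It was 75.3 and 57.8 CPM in WT and 29.3 and 38.9 CPM in ST at 2 months, and 39.2, 45.9 and 52.7 CPM in WT and 121, 110 and 126 CPM in ST at 6 months. Its effects were -0.99 ± 0.162 and 1.37 ± 0.125. Mx2 turned likewise, from -0.94 ± 0.18 to 0.68 ± 0.14.

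Gbp5, another guanylate-binding protein, kept its effect. It was 10.2 and 13.2 CPM in WT and 4.7 and 4.07 CPM in ST at 2 months, and 10.5, 10.8 and 11.3 CPM in WT and 2.95, 4.84 and 4.62 CPM in ST at 6 months. Its effects were -1.38 ± 0.236 and -1.37 ± 0.192, and the 95% interval of the difference ran from -0.66 to 0.68. The 21 lymphocyte markers in both tables summed to 44.2 to 46.2 CPM in WT and 35 to 37.2 CPM in ST at 2 months, and to 45.2 to 48.8 and 42.1 to 54.6 CPM at 6 months. Their part in the interferon and antigen genes was not tested.

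Tap1, Bst2 and Gbp5 stand for a shrinking, a turning and a kept effect, and their promoters are printed because all 3 hold the interferon response core AAANNGAAA, in capitals, on one strand or the other. They lie at chr20:4668626-4668694 (minus strand), chr16:18255053-18255127 (minus strand) and chr2:233910913-233910987 (plus strand).
Tap1: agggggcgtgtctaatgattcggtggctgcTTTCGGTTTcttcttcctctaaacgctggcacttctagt
Bst2: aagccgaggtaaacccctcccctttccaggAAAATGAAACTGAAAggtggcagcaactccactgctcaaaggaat
Gbp5: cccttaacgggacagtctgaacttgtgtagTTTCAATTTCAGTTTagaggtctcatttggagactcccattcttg
Tap1 holds 1 match, and Bst2 and Gbp5 each hold 2 that overlap. The core was in 23 of 37 windows of interferon-stimulated genes (62.2%) and 10 of 22 of antigen processing genes (45.5%), against 7.87% of windows of genes tested and 11.5% of all windows. It was in 8.57% of windows of genes with a positive difference and in 8.38% of those with a negative one.

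Other effects were present at 2 months and smaller or not called at 6 months. Tmem63c, of a family of mechanosensitive channels, was 1 and 0.8 CPM in WT and 16.9 and 18.1 CPM in ST at 2 months, and 16.7, 14 and 13.8 CPM in WT and 18, 19 and 25.7 CPM in ST at 6 months. ST was above WT at both times. Its effects were 4.22 ± 0.317 and 0.50 ± 0.146, both called, and the difference was -3.72 ± 0.371 (adjusted p = 4.24e-06). Pnpla3, a lipase of lipid droplets, was 14.6 and 13.8 CPM in WT and 2.98 and 2.71 CPM in ST at 2 months, and the groups overlapped at 6 months (5.1, 4.44 and 4.59 CPM in WT, 7.46, 3.23 and 6.73 CPM in ST). Pla2g2d, a secreted phospholipase, rose by 2.16 ± 0.361 at 2 months and had an uncalled effect of -0.33 ± 0.235 at 6 months.

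**Figure D4:**
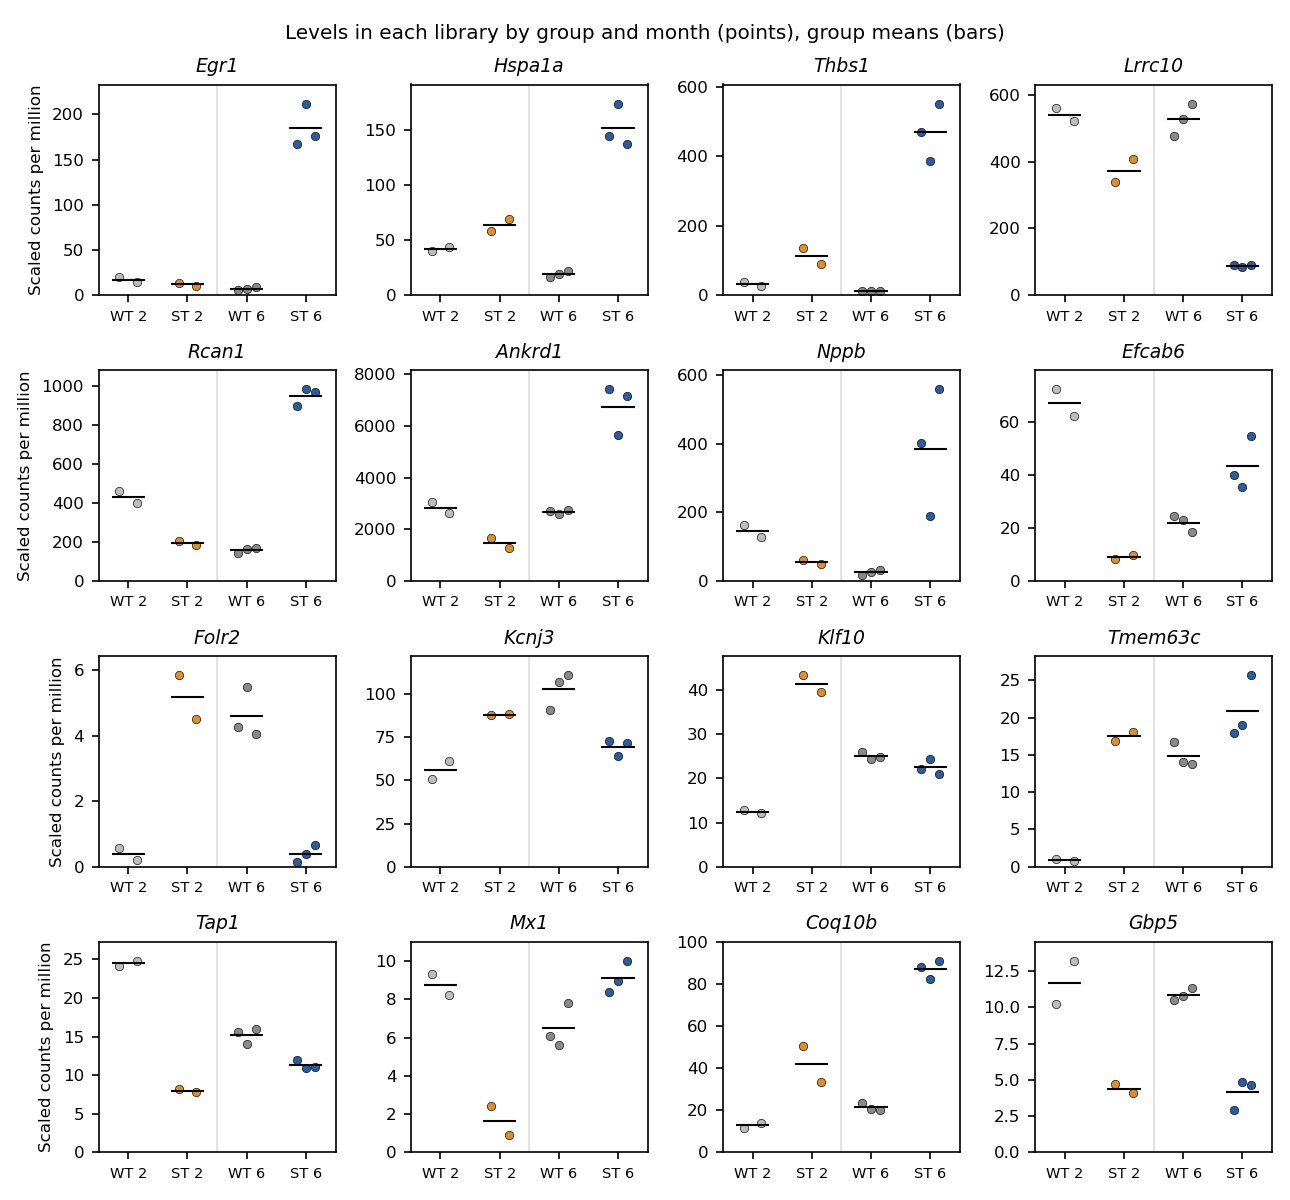
Levels in scaled CPM in each library (points, with bars at the group means) of WT and ST hearts at 2 and 6 months for 16 genes. In Rcan1, Ankrd1, Nppb and Efcab6 the ST points lie below WT at 2 months and above it at 6 months, Folr2 and Kcnj3 do the reverse, and Coq10b and Gbp5 keep their order at both times.

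Genes with the same effect at both times came from several functions. Coq10b, which binds coenzyme Q in mitochondria, was 11.6 and 14.2 CPM in WT and 50.8 and 33.4 CPM in ST at 2 months, and 23.3, 20.9 and 20.4 CPM in WT and 88.3, 82.8 and 91.2 CPM in ST at 6 months. Its effects were 1.73 ± 0.185 and 2.02 ± 0.13, and the 95% interval of the difference was -0.20 to 0.78. Without replicate 1 of ST at 2 months the difference became 0.63 and was called (adjusted p = 0.0361). Tinagl1, a secreted matrix protein, was 25.4 and 28.8 CPM in WT and 67.1 and 93.4 CPM in ST at 2 months, and 76, 57.5 and 59.6 CPM in WT and 203, 184 and 215 CPM in ST at 6 months. Its effects were 1.57 ± 0.171 and 1.64 ± 0.123. The transcription factors Cebpb, of the inflammatory response, and Bcl6, a repressor, rose by 1.17 ± 0.151 and 1.22 ± 0.215 at 2 months and by 1.24 ± 0.107 and 1.12 ± 0.171 at 6 months. Pde10a, a cyclic nucleotide phosphodiesterase, rose by 1.29 ± 0.222 and 1.54 ± 0.165. Fgf16, a growth factor made by heart muscle, was 28 and 25.6 CPM in WT and 9.29 and 13.9 CPM in ST at 2 months, and 31, 34.5 and 33.9 CPM in WT and 10.4, 13 and 13.7 CPM in ST at 6 months. It fell by 1.24 and by 1.41, and the interval of its difference was -0.66 to 0.31. In these genes ST and WT did not overlap at either time. Among fetal and stress genes, Fhl1 (0.63 ± 0.13 and 0.74 ± 0.106) and Actn1 (0.64 ± 0.132 and 0.69 ± 0.107) were higher at both times with no called difference.

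Markers of several other cell types separated the groups. Of 28 endothelial markers, 7 had a positive and 3 a negative difference, against 4 positive without replicate 1 of ST at 2 months, 11 positive without replicate 2 of ST at 6 months, and 1 negative without replicate 1 of WT at 2 months. With all 10 libraries 25% were positive and 10.7% negative, against 10.2% and 12% of all genes, so the negative share lay below that of all genes. The endothelial markers summed to 3200 to 3251 CPM in WT and 3290 to 3516 CPM in ST at 2 months, and to 2806 to 3222 and 3435 to 3991 CPM at 6 months. Cldn5, a tight junction protein of endothelium, was 9.46 and 8 CPM in WT and 8.15 and 7.98 CPM in ST at 2 months, and 13, 12.4 and 12.4 CPM in WT and 38.2, 31.7 and 42.9 CPM in ST at 6 months. Of 19 smooth muscle and pericyte markers, 6 had a positive and 1 a negative difference, and 3 were positive without replicate 1 of WT at 2 months. With all 10 libraries 31.6% of these markers were positive and 5.26% negative. The smooth muscle sums were 4292 to 4505 CPM in WT and 3899 to 4308 CPM in ST at 2 months, and 3352 to 3575 and 3822 to 4263 CPM at 6 months, overlapping at 2 months and higher in ST at 6 months. A large part of these sums was the single gene Des. Its group means were 2136 CPM in WT and 1829 CPM in ST at 2 months, and 2101 and 2567 CPM at 6 months. A sum without Des was not taken. The 18 erythroid genes, 1 of them at 0 in every library, summed to 735 to 764 CPM in WT and 863 to 1068 CPM in ST at 2 months, and 419 to 440 and 553 to 560 CPM at 6 months, with ST above WT at both times. The haemoglobin gene Hba-a2 alone had group means of 157 CPM in WT and 388 CPM in ST at 2 months, and 77.9 and 153 CPM at 6 months. Slc4a1 had means of 6.63 CPM in WT and 52.4 CPM in ST at 6 months. The erythroid sums thus do not stand for all 18 genes, and sums without Hba-a2 and Slc4a1 were not taken. With the haemoglobin genes left out of the fit, 1296 differences were positive and 1516 negative. The 19 neuronal and Schwann cell markers, 1 of them at 0 in every library, summed to 38.4 to 43.3 CPM in WT and 30.4 to 35.1 CPM in ST at 2 months, and 48.9 to 50.2 and 37.6 to 47.2 CPM at 6 months, with ST below WT at both times. The part of the smooth muscle, endothelial and neuronal markers in the other differences was not tested.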

How the data were processed

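Bulk RNA-seq of rat heart was used from 10 libraries, 4 at 2 months and 6 at 6 months; 3 ST libraries of 8 months, which have no WT of that time, were not used. The deposited values are expected counts per gene name, as the authors' tables give them, and were rounded to whole numbers. No label or file header used here names the counting tool. The submitters' processing notes name the mouse builds GRCm38 and mm10, whereas all 23018 names in both tables matched rat RefSeq names. Libraries were scaled by TMM, genes filtered with filterByExpr, and the contrast tested with edgeR 4.0.16 (quasi-likelihood) in R 4.3.3, Benjamini-Hochberg adjusted over 12658 genes at 0.05. DESeq2 1.42.0 and limma 3.58.1 were alternatives. Where nothing in the labels says that replicates came from separate animals, p-values measure only the spread between these libraries. No 2 replicates agreed within sampling noise. Counting intervals and floors (3 counts) cover counting error only.

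The members and the 55 gene lists were chosen with earlier results of these data known. Genes named were those with the largest positive, negative, opposite, shrinking, 2-month and kept effects (8 each, mean log2 CPM of at least 1), up to 4 members per list with the smallest p, and a fixed set of cardiac genes. Acta1, Actn1, Fhl1, B2m, Cd74, Psmb8, Psmb9, Psmb10, RT1-A1 and RT1-Da fall outside that rule and were named after their values were seen.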

Additional observations from a re-analysis of the deposited data

Results flagged for a closer look

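In 8 genes of large opposite effect every ST library lay on one side of every WT library at 2 months and on the other side at 6 months. By edgeR's quasi-likelihood test of the difference itself, log2 differences were -5.29 for Ctsml1, 4.23 for Dnah5, 5.79 for Dnah7, -7.04 for Folr2, -7.74 for Msln, -4.80 for Rnase1, 5.34 for Rnd1 and 7.54 for Slc47a1. Ctsml1, Msln and Slc47a1 rest on 2 or 3 counts in 1 group, so their fitted sizes depend on the prior count.

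mCherry, which is listed in the 2-month table alone and enters no comparison, had 252 and 220 counts in the ST libraries and 1 and 0 in the WT libraries.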

How the results depend on the processing

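The counts of positive and negative differences stayed within 1.5 times their values of 1294 and 1517 under each alternative scaling, filter, tool and fold limit tried. With 1 library left out at a time they ran from 705 to 1516 and from 853 to 1681. Genes called at both times with opposite signs (165) numbered 298 with no filter on low counts, where more genes were tested, and 100 in limma-voom with a variance weight per time point (the cause was not tested), and from 43 to 373 with 1 library left out. Genes with the same sign and no called difference (249) numbered 145 with those weights, and from 99 to 395 with 1 library left out. All 4 lowest counts came without replicate 1 of WT at 2 months and all 4 highest without replicate 2 of ST at 2 months. Of the 2811 main calls, 1495 (53.2%) were also called with the same sign without that WT library, and 2172 (77.3%) with DESeq2. Of 85 genes followed by name with a called difference, 76 kept the call and its sign in every alternative in which they were tested. Those genes were named largely for large effects or small p in these same data, so this share does not describe the other calls.

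Replicate numbers did not pair the samples: deviations of same-numbered ST and WT libraries correlated at 0.07 and 0.07 at 2 months and at 0.04, 0.11 and 0.02 at 6 months. With the replicate block there were 1381 positive and 1560 negative differences, 222 genes called with opposite signs and 273 with the same sign.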
